A study of Mus musculus with 3 samples.

Results

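Oxidative phosphorylation is carried out by 5 protein complexes of the mitochondrial inner membrane, and most of their subunits are encoded in the nucleus. The nuclear genes were taken from the deposited expression table by symbol: Ndufa, Ndufb, Ndufc, Ndufs and Ndufv genes for complex I, Sdha to Sdhd for complex II, Uqcr genes for complex III, Cox4 to Cox8 genes for complex IV and Atp5 genes for complex V. Assembly factors named Ndufaf and symbols with -ps were left out. The pattern matched 86 of 46078 rows, and 78 of these had a mean of at least 1 FPKM (counted fragments per kilobase of exonic gene size, scaled to the depth of the library) over the 3 libraries. These 78 genes, 37 of complex I, 4 of II, 8 of III, 12 of IV and 17 of V, stand among 10849 genes that reached the same level.

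The cells were RAW 264.7, a mouse macrophage-like line derived from a tumour induced by Abelson murine leukemia virus, at passages 10-15. The first culture received gold nanocages together with 0.5 mM hydroxyurea (HU), the second 0.5 mM HU alone, and the third was the control. RNA was taken after 12 hours, and each condition was sequenced as 1 library, so no difference between conditions has a replicate check and no p-value is given. The dose of the nanocages is not given in the sources used here. Hydroxyurea blocks the enzyme that makes deoxyribonucleotides, so DNA synthesis stalls.

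The 3 libraries held 14990564 to 20057329 counted reads. All 8 macrophage markers examined reached a mean of 1 FPKM, and none of 8 markers of lymphocytes, fibroblasts and epithelium did. The p53 target Cdkn1a, which encodes the cell cycle inhibitor p21, was at 401.0 FPKM in HU plus gold nanocages and 411.7 FPKM in HU, against 63.0 FPKM in control. Rrm2, which encodes the subunit of ribonucleotide reductase that hydroxyurea acts on, was at 140.3, 141.5 and 113.2 FPKM in the same order.

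Complex I takes electrons from NADH and complex II takes them from succinate, and both pass them to ubiquinone. Complex III hands them on to cytochrome c, complex IV uses them to reduce oxygen, and complex V makes ATP from the proton gradient that complexes I, III and IV build. Transcription of the nuclear genes is known to depend on NRF1, on ETS factors of the GABP type, on YY1 and on the estrogen-related receptors (ERR). Macrophages are known to shift between respiration and glycolysis when they are activated.

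Promoter windows of the genes are shown because letters recognised by these factors are what some members share and the symbol rule did not use. RefSeq windows on GRCm38.p6, from 250 bases before to 30 bases after each annotated start, were found for 66 of the 78 genes. Genes without an entry included Atp5a1, Cox4i1, Cox6a2, Cox6c, Ndufa2, Ndufb9, Ndufs1, Sdhc, Uqcrb, Uqcrc2 and Uqcrq. The motifs searched on both strands were GCGCA and GCGC with any base between them for NRF1, CCGGAAG for ETS factors, AAGATGGCG for YY1 and TCAAGGTCA for ERR. No match overlapped another in the windows printed here. From each complex 1 gene with several matches, or with any match for complex III, is printed 5′ to 3′ on its own strand, with matched letters in capitals.
Ndufb4 (complex I), chr16:37654339-37654618, strand -: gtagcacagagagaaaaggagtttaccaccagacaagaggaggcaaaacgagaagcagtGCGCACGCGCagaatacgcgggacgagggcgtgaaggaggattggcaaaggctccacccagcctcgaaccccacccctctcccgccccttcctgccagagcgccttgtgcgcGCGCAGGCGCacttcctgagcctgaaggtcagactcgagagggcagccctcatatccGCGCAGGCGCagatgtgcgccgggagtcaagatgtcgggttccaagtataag
Sdha (complex II), chr13:74350211-74350490, strand -: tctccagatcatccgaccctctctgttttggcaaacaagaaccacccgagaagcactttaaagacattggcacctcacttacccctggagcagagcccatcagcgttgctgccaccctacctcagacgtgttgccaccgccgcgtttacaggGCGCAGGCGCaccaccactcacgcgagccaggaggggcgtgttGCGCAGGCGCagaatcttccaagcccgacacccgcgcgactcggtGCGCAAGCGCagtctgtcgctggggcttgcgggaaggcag
Uqcrc1 (complex III), chr9:108936398-108936677, strand +: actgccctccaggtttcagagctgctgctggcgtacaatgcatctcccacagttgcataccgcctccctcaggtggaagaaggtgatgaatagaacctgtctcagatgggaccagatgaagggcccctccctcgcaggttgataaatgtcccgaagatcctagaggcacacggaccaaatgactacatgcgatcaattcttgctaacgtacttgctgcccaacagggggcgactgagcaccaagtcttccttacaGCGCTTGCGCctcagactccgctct
Cox6a1 (complex IV), chr5:115348929-115349208, strand -: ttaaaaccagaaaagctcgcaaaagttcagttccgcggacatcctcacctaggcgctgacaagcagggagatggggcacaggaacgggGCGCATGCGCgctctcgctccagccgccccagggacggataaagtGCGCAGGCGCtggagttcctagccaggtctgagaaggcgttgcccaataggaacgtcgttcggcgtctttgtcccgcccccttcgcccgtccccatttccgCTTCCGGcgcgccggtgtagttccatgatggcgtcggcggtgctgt
Atp5j (complex V), chr16:84834947-84835226, strand -: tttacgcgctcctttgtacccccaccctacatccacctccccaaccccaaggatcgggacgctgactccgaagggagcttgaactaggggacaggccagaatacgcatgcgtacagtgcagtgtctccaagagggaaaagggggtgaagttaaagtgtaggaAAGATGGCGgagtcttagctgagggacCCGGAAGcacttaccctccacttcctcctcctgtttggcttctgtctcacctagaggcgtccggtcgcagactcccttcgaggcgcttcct

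Sdha and Ndufb4 carry 3 NRF1 matches each, and Cox6a1 carries 2 NRF1 matches and 1 ETS match. The Atp5j window holds a YY1 match that starts 88 bases before the start site and an ETS match 61 bases before it. The locus of Atp5j overlaps in the annotation, on the opposite strand, with Gabpa, which itself encodes the DNA-binding subunit of GABP.

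An NRF1 match was present in a window of 16 of the 66 genes (24.2%), against 12.7% of the 7607 genes of mean FPKM of at least 1 that had windows and 4.98% of all 27025 genes with windows. ETS matches were found in 16 of 66 members (24.2%), against 22.4% of the expressed genes and 9.48% of all genes. The share of members with an ETS match was thus near that of expressed genes. YY1 letters occurred in 2 of 66 (3.03%) against 3.08% and 1.22%, and ERR letters in 1 of 66, the c-ring gene Atp5g3 (1.51%, against 0.289% and 0.459%). A match describes letters in a window and does not show binding.

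**Figure D1:**
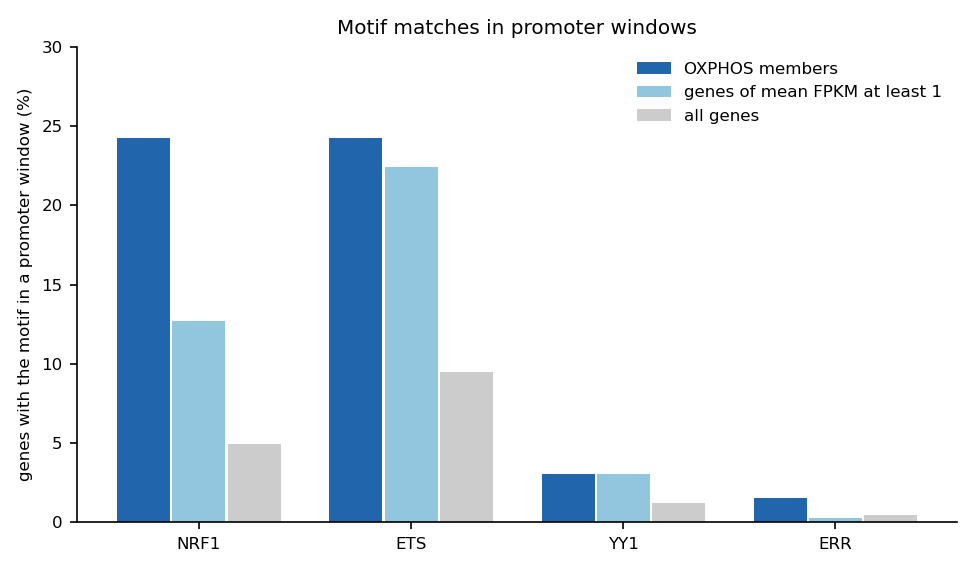
Share of genes (%) with a motif match in a promoter window, for the nuclear OXPHOS (oxidative phosphorylation) genes, for genes of mean FPKM of at least 1 and for all genes with windows. The NRF1 bars stand at 24.2%, 12.7% and 4.98%, while the ETS bars of members and expressed genes lie close together at 24.2% and 22.4%.

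Within each library the 78 genes spanned more than 2 orders of magnitude in FPKM, and their order was nearly the same in all 3 libraries. Spearman's rho of FPKM over the 78 genes was 0.997 for HU plus gold nanocages and HU, 0.996 for HU and control, and 0.997 for HU plus gold nanocages and control. These are correlations across genes that share their lengths and loci, so they describe the order only. Summed over the genes, 1.104% of reads in HU plus gold nanocages, 1.126% in HU and 1.111% in control fell on them.

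By mean FPKM over the 3 libraries, complex IV held both the highest and the lowest of the members. Cox8a, a small liver-type subunit that is the ubiquitous isoform, was at 532.3 FPKM in HU plus gold nanocages, 565.9 in HU and 518.4 in control. Cox6a2, the heart and skeletal muscle isoform of subunit VIa, was at 2.61, 1.59 and 2.23 FPKM in the same libraries on 32, 21 and 22 reads. Its ubiquitous counterpart Cox6a1 was at 359.2 FPKM in HU plus gold nanocages, 368.7 in HU and 360.6 in control. Cox4i1, the common isoform of subunit IV, was at 254.9, 262.7 and 245.4 FPKM in that order.

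The 8 matching rows below a mean of 1 FPKM were mostly isoforms of other tissues. Cox7a1, the muscle isoform of subunit VIIa, lay just under the limit with a mean of 0.973 FPKM, while Cox6a2 was the lowest above it with 2.14. The hypoxia-related isoform genes Cox4i2 and Ndufa4l2 had no more than 5 and 3 reads in any library. The testis and muscle isoform genes Cox6b2, Cox7b2, Cox8b and Cox8c had 0 to 2 reads, and the last of the 8 was a second identifier with the symbol Uqcrc1 that had 0 reads. A count of 0 allows up to 0.161 CPM (counts scaled to the depth of the library, with no length) in HU plus gold nanocages, 0.150 in HU and 0.200 in control (3 reads each).

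Complex V was led by the catalytic F1 genes. Atp5a1, the alpha subunit, was at 456.1 FPKM in HU plus gold nanocages, 462.7 in HU and 454.0 in control. Atp5b, the beta subunit that carries the catalytic sites, was at 447.2, 460.4 and 455.8 FPKM in the same order. The c ring, which turns as protons pass, is encoded by 3 genes for the same mature protein. Of these Atp5g3 was at 81.6, 87.5 and 81.5 FPKM, Atp5g2 at 5.22, 4.94 and 5.85 FPKM, and Atp5g1 at 2.27, 2.38 and 2.34 FPKM, again in HU plus gold nanocages, HU and control.

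Complex II genes ranged over 6.67-fold in mean FPKM and complex III genes over only 1.83-fold, against 85.0-fold in complex I, 251.4-fold in complex IV and 196.4-fold in complex V. Sdhd, a membrane anchor of complex II, averaged 246.7 FPKM, against 37.0 FPKM for the other anchor gene Sdhc. In complex III, Uqcr10 was highest with a mean of 114.6 FPKM and Uqcrq lowest with 62.5 FPKM. In complex I, Ndufa4, a subunit since assigned to complex IV, was highest at 301.3 FPKM on average, and the accessory subunit gene Ndufb2 lowest at 3.55 FPKM. The range of complex I by symbol therefore rests on Ndufa4, and the next gene, Ndufs8, averaged 104.0 FPKM. That of complex IV rests likewise on Cox6a2, as the next lowest gene, Cox7c, averaged 16.4 FPKM. In complex V the lowest genes were Atp5g1 at 2.33 FPKM and Atp5s at 2.83 FPKM on average.

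These orders depend in part on the length used. The exonic size in the table runs to 5628 bases for Ndufb2 and 4912 for Atp5g1, while their principal transcripts in GENCODE M21 have 455 and 596 bases. Per kilobase of the principal transcript, the lowest gene of complex I was Ndufb4 and that of complex V Atp5s, and complex III ran from Uqcrq down to Uqcr11. Spearman's rho between the length scales was 0.589 over the 37 genes of complex I and -0.262 over the 8 of complex III, but 0.846 over the 12 of complex IV and 0.929 over the 17 of complex V. The range of levels on this scale was 3.07-fold in complex III, 6.81-fold in II, 63.5-fold in I, 257.5-fold in IV and 354.9-fold in V. That V was wider than IV rests on Atp5s, at 2.82 CPM per kilobase in HU. The next lowest gene of V, Atp5sl, was at 11.9 in HU. Both genes stand in complex V by symbol, and an alternative assignment of genes to complexes left them out. Ratios of a gene between libraries do not use its length.

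**Figure D2:**
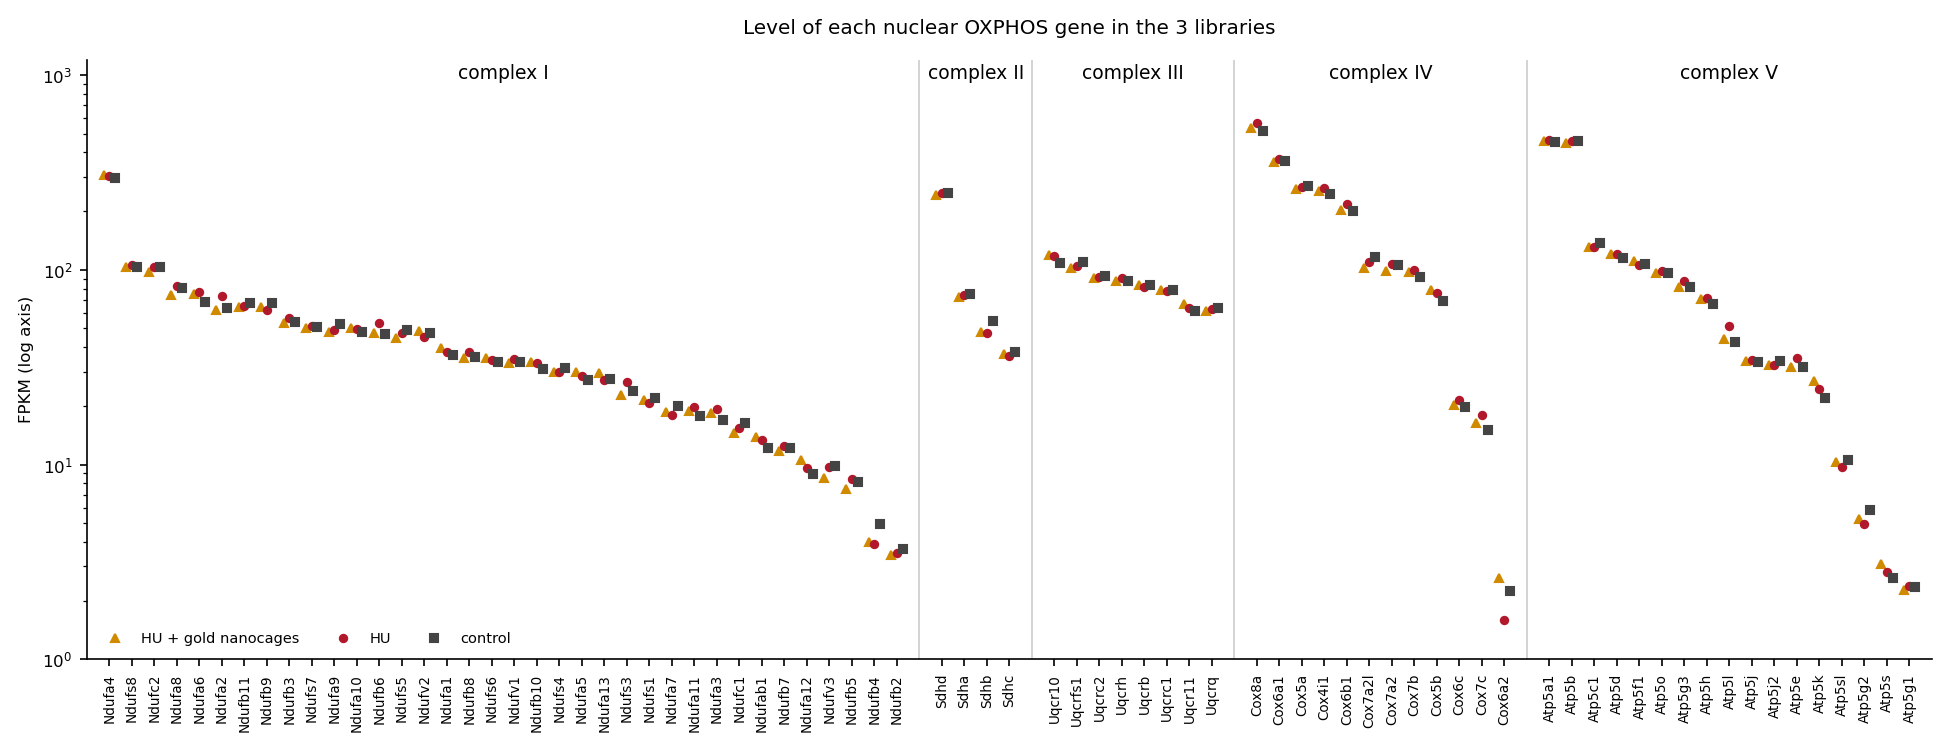
FPKM (log axis) of 77 nuclear OXPHOS genes, grouped by complex and sorted by mean, in HU plus gold nanocages (triangles), HU (circles) and control (squares). The 3 symbols of most genes lie close together, and the spread between genes, with Cox8a at the top and Cox6a2 near the bottom, is far larger than that between libraries.

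Low levels of some members go with reads at near-identical copies. A copy was counted where another gene at a separate locus matched the principal transcript at 95% identity or more over at least 150 bases. Such copies were annotated for 24 of the 78 genes, and those of 4 genes held more reads than the gene itself in all 3 libraries. How reads that match a gene and its copy were assigned is not given in the sources used here, so the levels of these genes are uncertain.

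Atp5g1 had 208 reads in HU plus gold nanocages, 234 in HU and 172 in control, while its processed pseudogene Gm10039 had 1932, 2236 and 1612. Ndufa12, an accessory subunit of complex I, had 261, 256 and 179 reads, against 687, 729 and 522 at the pseudogene Gm15920. The copies therefore held 90.3% of the combined reads of Atp5g1 and 72.5% of those of Ndufa12 in HU plus gold nanocages, and 90.4% and 74.5% in control. Atp5l, subunit g of the ATP synthase, and Cox7c, a small subunit of complex IV, were the other members with more reads at copies, with 63.1% and 58.4% of combined reads at copies in control.

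**Figure D3:**
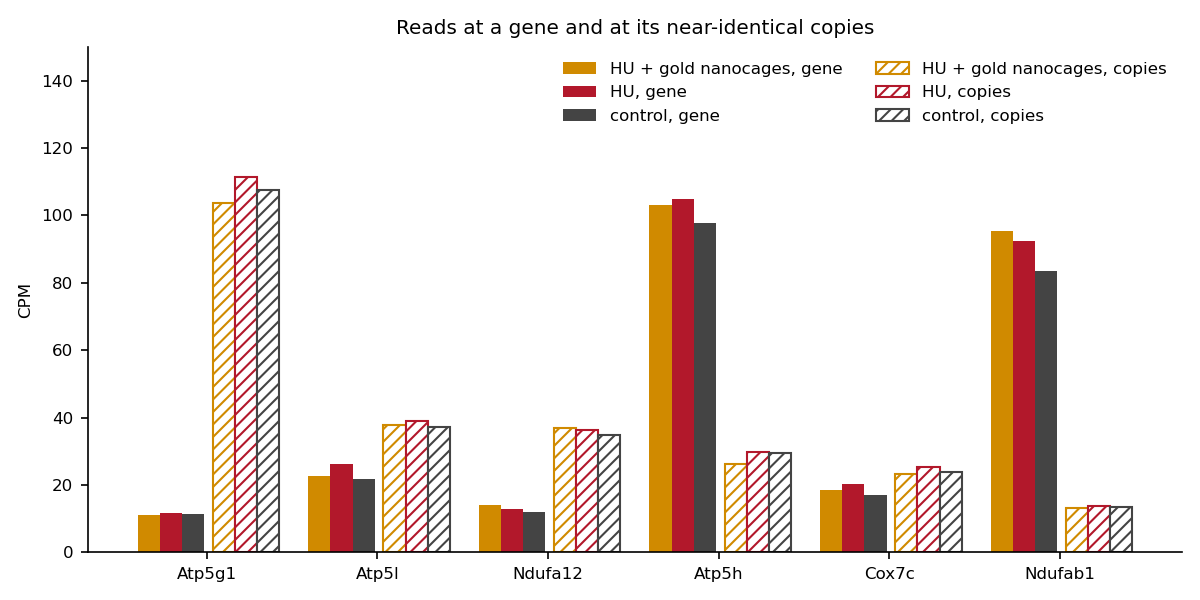
CPM at 6 genes (filled bars) and summed over their near-identical copies (hatched bars) in HU plus gold nanocages, HU and control, for genes whose copies had at least 100 reads in every library. Copies exceed the gene at Atp5g1, Atp5l, Ndufa12 and Cox7c, and fall below it at Atp5h and Ndufab1.

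HU against control compares the library with the drug to the one without, 1 library each, so drug and culture cannot be told apart. RNA levels of the members differed little between the libraries. The median log2 ratio of CPM was 0.03 over the 78 genes, against -0.01 over all 10849 genes. In such bulk libraries fewer cells of a type and less RNA per cell cannot be told apart. Only 2 members were at least 1.2-fold higher in HU and 2 at least 1.2-fold lower, where 13.1% of all genes were higher and 11.6% lower by that margin. Of the 61 members at 20 FPKM or more on average, 1 was higher and 0 were lower by 1.2-fold, beside 5.86% and 5.17% of all 3363 genes at that level.

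By counting error the picture is similar. Exact (Clopper-Pearson) 95% intervals of the CPM ratio cover counting error only, because each condition is 1 library and variation between cultures is not in them. Reads also carry no molecular identifiers. The intervals lay above 1 for 19 members and below 1 for 5. Over all genes 18.7% lay above and 20.1% below. The remaining 54 members (69.2%) had intervals that included 1, against 61.2% of all genes. The members tended to the upper side, 24.4% of them above and 6.41% below. At 20 FPKM or more, 16 of 61 members were above and 5 below, beside 23.3% and 24.2% of all genes at that level. Of the 8 macrophage markers 0 lay above and 4 below in the same comparison, and their part in the result was not tested.

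Complex IV stood at the upper end of the 5 complexes in HU. Its median log2 ratio was 0.11, and 7 of 12 members (58.3%) were above counting error and none below, beside 18.7% and 20.1% of all genes. Cox8a was 1.09 times its control level (interval 1.05 to 1.136), Cox4i1 1.07 times (1.03 to 1.11), and Cox5b, a zinc-binding subunit, 1.101 times (1.03 to 1.17). Cox6b1, Cox7b and Cox6c lay between 1.08 and 1.09 times control. Cox7c, at 18.03 FPKM in HU against 15.0 FPKM in control, was 1.204 times control (1.03 to 1.41), and with the reads of its copies added the ratio was 1.13 (1.02 to 1.25). In 3 of the 12 members the ratio was below 1, with intervals that included 1. Cox6a2 had the lowest ratio of all 78 members, 0.713 (0.373 to 1.36) on 21 reads in HU against 22 in control. Cox7a2l was 0.946 times control (0.891 to 1.0035) and Cox5a 0.992 times (0.944 to 1.04).

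Complex II lay at the other end, with a median of -0.05. All 4 ratios were below 1, as were those of 5630 of all 10849 genes. Of the 4 members 1 (25%), Sdhb, lay below counting error and none above, beside 20.1% and 18.7% of all genes. Sdhb, the iron-sulfur subunit, was at 47.5 FPKM in HU against 54.5 FPKM in control, 0.873 times (0.819 to 0.929). Its locus in mm10 is chromosome 4, 140961203 to 140979193, on the plus strand. Sdha, the flavoprotein that oxidises succinate, was at 74.3 FPKM in HU against 74.9 FPKM in control, and Sdhd at 248.4 against 248.5 FPKM. Sdhc was at 35.9 FPKM in HU against 38.0 FPKM in control (0.945 times, 0.888 to 1.005). Reads summed over the complex were 0.971 times control (0.949 to 0.994) for II and 1.05 times (1.04 to 1.07) for IV. The difference between the complexes has no replicate behind it and was not tested.

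Complex I had a median of 0.04, with 6 of 37 members (16.2%) above and 3 (8.11%) below counting error. Over all genes 18.7% lay above and 20.1% below. The core subunits include those that hold the flavin and the iron-sulfur clusters of the complex. Ndufs1, which holds several of the clusters, was 0.936 times control (0.889 to 0.985), whereas Ndufs3 was 1.12 times (1.02 to 1.22). The core genes Ndufs7, Ndufs8, Ndufv1 and Ndufv2 lay between 0.954 and 1.03 times control, with intervals that included 1. Among 30 accessory genes 5 (16.7%) were above and 1 (3.33%) below. The highest ratio was that of Ndufa2, at 73.5 FPKM in HU against 63.9 FPKM in control, or 1.15 times (1.03 to 1.28). Ndufb4 had the lowest ratio of complex I at 0.790, but on 92 and 87 reads its interval of 0.583 to 1.07 included 1.

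In complex III, which has no member outside counting error, the median was -0.01. The Rieske iron-sulfur protein gene Uqcrfs1 was at 104.1 FPKM in HU against 109.4 FPKM in control, 0.951 times (0.8997 to 1.01). The core protein genes Uqcrc1 and Uqcrc2 were 0.9896 times (0.953 to 1.03) and 0.980 times control (0.937 to 1.02).

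Complex V had a median of 0.04, with 6 of 17 members (35.3%) above counting error and 1 (5.88%) below. Over all genes 18.7% lay above and 20.1% below. Atp5l showed the highest ratio of all members, at 51.6 FPKM in HU against 42.6 FPKM in control, or 1.21 times (1.05 to 1.397). With the reads of its copies added the ratio was 1.11 (1.02 to 1.21). Atp5a1, with 21334 reads in control, was 1.02 times control (1.001 to 1.04), and Atp5b was 1.01 times (0.995 to 1.03). Atp5c1, the central stalk subunit gamma, was the member below, at 0.954 times (0.914 to 0.995).

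**Figure D4:**
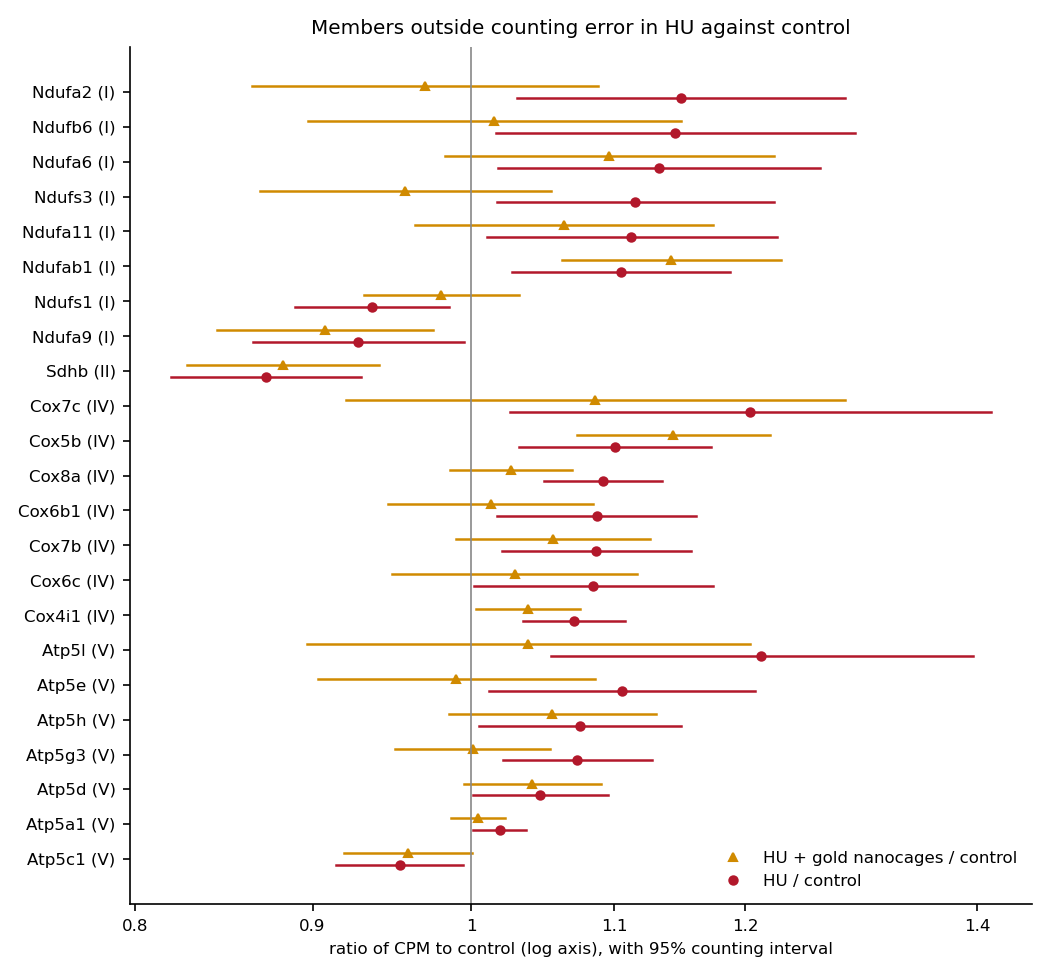
Ratio of CPM to control (log axis) with 95% counting intervals for 23 members whose interval excludes 1 in HU against control, in HU plus gold nanocages (triangles) and HU (circles). All 7 complex IV members lie right of 1 in HU, and Sdhb lies left of 1 in both comparisons, which share the control library.

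Gene length moved with these ratios. For the 380 genes of any kind at 20 FPKM or more with an exonic size under 1000 bases, the median log2 ratio in HU against control was 0.03. The 25 members under 1000 bases had a median of 0.05, and the 53 longer members one of 0.01. When the trend with exonic size over all genes was subtracted, the median of the 78 genes turned to -0.00404, 7 members lay above and 10 below counting error, and complex IV had a median of 0.06. The part of length in the result was not tested further.

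HU plus gold nanocages against HU compares the library with nanocages to the HU library, again 1 library each. The members were slightly lower with nanocages, with a median log2 ratio of -0.03 against 0.00413 over all genes. Below counting error were 14 members (17.9%), where 7.78% of all genes lay, and above it 2 (2.56%), where 8.35% of all genes lay. Only Cox6a2 was at least 1.2-fold apart, at 1.64 times HU on 32 against 21 reads (0.917 to 2.99). Over all genes 5.22% were higher and 4.48% lower by that margin. At 20 FPKM or more, 2 of 61 members were above counting error and 13 below, beside 11.6% and 14% of all genes at that level. None of the 61 was 1.2-fold apart, beside 0.862% higher and 0.476% lower.

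The 14 lower members came from complexes I (6), IV (4) and V (4). Ndufa2 was at 62.0 FPKM with nanocages against 73.5 FPKM in HU, 0.844 times (0.761 to 0.935). Ndufs3 was 0.858 times HU (0.786 to 0.937), Atp5l 0.856 times (0.751 to 0.975) and Cox8a 0.941 times (0.907 to 0.976). The ratio of Atp5l with the reads of its copies added was 0.927 (0.855 to 1.005). The 2 higher members were Ndufv2, a core subunit with an iron-sulfur cluster, at 1.08 times (1.01 to 1.16), and Atp5f1, subunit b of the peripheral stalk, at 1.04 times (1.01 to 1.07).

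This comparison shares the HU library with the one before it, so a gene that happened to be high in that library is high in one ratio and low in the other. Of the members lower with nanocages, Ndufa2, Ndufb6, Ndufs3, Cox6b1, Cox8a, Atp5e, Atp5g3 and Atp5l were above counting error in HU against control. The others, Ndufa8, Ndufb5, Ndufb8, Cox7a2, Cox7a2l and Atp5b, had intervals that included 1 there. The 25 members under 1000 bases had a median of -0.05 and the 53 longer members one of -0.02. Over the 380 short genes named above the median was -0.03, and over all genes of 1000 to 3000 bases it was -0.00378. Of those 380 genes 21.1% lay below counting error and 8.16% above, while of the 25 short members 7 (28%) lay below and none above. After subtraction of the length trend the members' median stayed at -0.03.

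HU plus gold nanocages against control gave a median log2 ratio of -0.01, against -0.00404 over all genes. The interval lay above 1 for 6 members and below 1 for 7, beside 19.6% and 20.1% of all genes, and 65 members (83.3%) had intervals that included 1, against 60.3% of all genes. With the length trend subtracted 3 lay above and 15 below, and among the 54 members without near-identical copies 1 lay above and 6 below. At least 1.2-fold apart were Atp5k (higher) and Ndufb4 (lower), where 14% of all genes were higher and 12% lower. At 20 FPKM or more, 5 of 61 members were above counting error and 7 below, beside 23.5% and 26.3% of all genes at that level. By 1.2-fold 1 was higher and 0 were lower, beside 6.48% and 5.74%.

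Atp5k, subunit e of the ATP synthase, was at 26.9 FPKM in HU plus gold nanocages against 21.9 FPKM in control, or 1.23 times (1.03 to 1.48). Cox5b was at 79.1 FPKM against 69.1 FPKM (1.144 times, 1.07 to 1.22), and Ndufab1, the mitochondrial acyl carrier protein, at 13.9 against 12.1 FPKM (1.142 times, 1.06 to 1.23). Lower in HU plus gold nanocages than in control was Sdhb at 48.0 against 54.5 FPKM (0.882 times, 0.828 to 0.941). Cox7a2l, a factor of respiratory supercomplexes, was at 102.2 against 115.7 FPKM (0.883 times, 0.830 to 0.939).

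**Figure D5:**
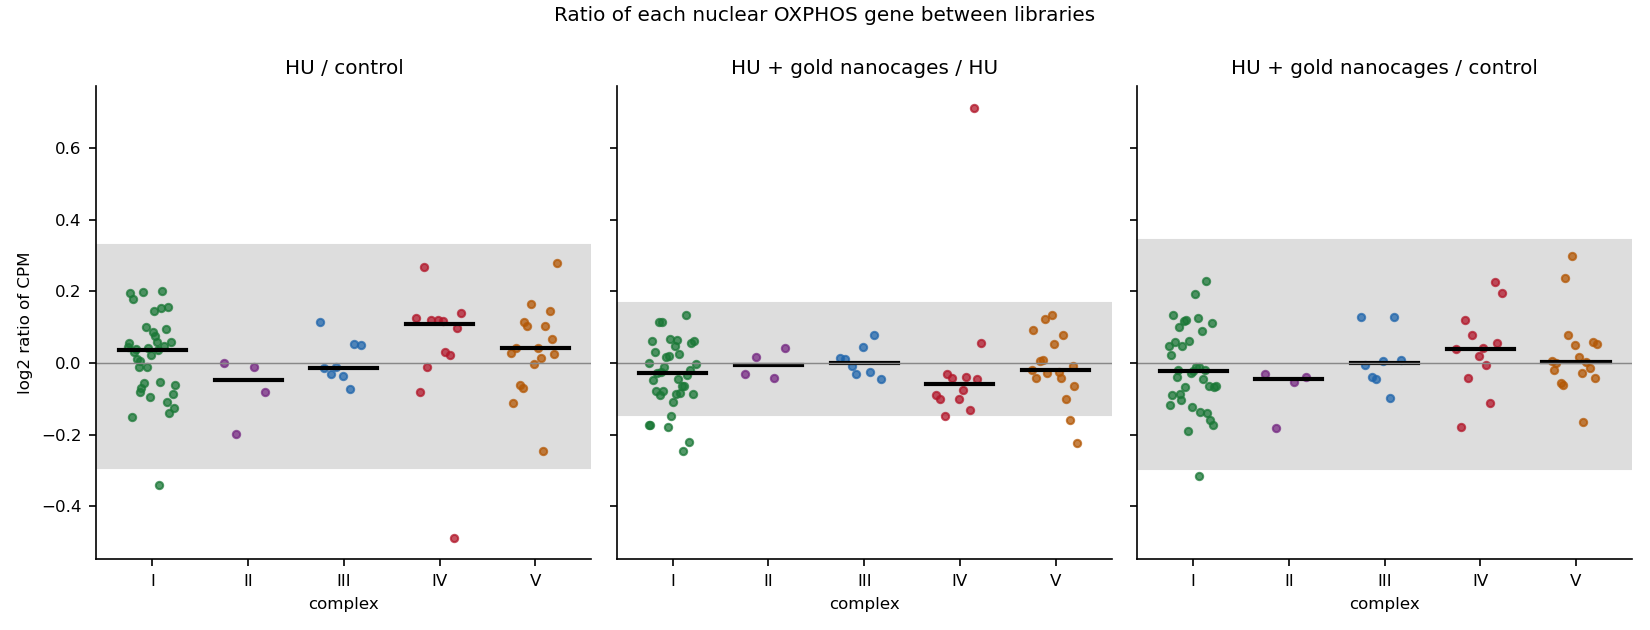
Log2 ratio of CPM of each member (points) by complex, with the median of the complex as a bar, for HU against control, HU plus gold nanocages against HU, and HU plus gold nanocages against control. The grey band holds the middle 80% of all genes of mean FPKM of at least 1, and most members lie inside it, with complex IV highest in HU against control at a median of 0.11.

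The mitochondrial genome encodes 13 further subunits. Reads on them made up 3.27% of the library in HU plus gold nanocages, 3.15% in HU and 2.95% in control. In HU against control 8 of the 13 were above counting error and none below, beside 18.7% and 20.1% of all genes. None of the 13 was 1.2-fold higher or lower in HU, beside 13.1% and 11.6% of all genes. With up to 307832 reads in HU, small ratios such as 1.03 at mt-Co1 and 1.02 at mt-Nd2 lay outside counting error. In HU plus gold nanocages against control 7 were above and 1 below, beside 19.6% and 20.1% of all genes. By 1.2-fold 3 were higher and 0 lower there, beside 14% and 12%. In HU plus gold nanocages against HU 7 were above and 1 below, beside 8.35% and 7.78%. By 1.2-fold 1 was higher and 1 lower, beside 5.22% and 4.48%. The gene mt-Cytb, the only subunit of complex III encoded there, was at 4381 FPKM in HU plus gold nanocages and 4050 FPKM in HU, against 3465 FPKM in control.

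Genes that regulate the subunits or the mitochondrial genome included some that were higher in HU and some that were lower. Esrra, the estrogen-related receptor alpha, was at 28.5 FPKM in HU plus gold nanocages and 30.7 FPKM in HU, against 19.99 FPKM in control, and HU was 1.54 times control (1.41 to 1.68). Pprc1, a coactivator related to PGC-1, was 1.22 times control in HU (1.16 to 1.28), and Gabpb1, a partner subunit of GABPA, 1.23 times (1.12 to 1.36). Polg2, the accessory subunit of the mitochondrial DNA polymerase, was 0.812 times control, with an interval of 0.626 to 1.06. Nrf1 and Ppargc1a are named for the motifs and for their role, after their values were seen. Nrf1 was at 5.48 FPKM in HU plus gold nanocages and 5.46 FPKM in HU, against 6.12 FPKM in control (HU 0.892 times, 0.818 to 0.974), and Ppargc1a, which encodes PGC-1 alpha, had 0 reads in all 3. Of 17 measured regulators 4 (23.5%) were above and 3 (17.6%) below counting error in HU against control, with a median log2 ratio of -0.00345. Over all genes 18.7% lay above and 20.1% below, so the shares of the regulators were near those of all genes.

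Among 43 measured assembly factors 4 (9.30%) were above and 4 (9.30%) below counting error in HU against control, with a median of -0.03. Over all genes 18.7% lay above and 20.1% below. Apart from Lyrm7, the furthest ratios were those of Pet100 (1.4 times, 0.936 to 2.12, on 73 reads in HU against 39 in control) and Cox20 (1.33 times, 0.963 to 1.84, on 110 reads in HU against 62 in control), and their intervals included 1. Atpaf1 and Timmdc1 are named after their values were seen. Coa7 (1.26 times, 1.08 to 1.47) and Atpaf1, a chaperone of the F1 part (1.26 times, 1.05 to 1.51), were higher in HU. Timmdc1, an assembly factor of complex I, was lower (0.8002 times, 0.690 to 0.928), and so was Lyrm7, a chaperone of the Rieske protein (0.691 times, 0.497 to 0.960, on 74 reads in HU against 80 in control). In HU plus gold nanocages Timmdc1 was 0.986 times control (0.855 to 1.137) and 1.23 times HU (1.07 to 1.42). Lyrm7 was 1.04 times control (0.765 to 1.404) and 1.497 times HU (1.1 to 2.05) in that library. Of 18 genes of the tricarboxylic acid cycle, which feeds the chain, 1 (5.56%) was above and 6 (33.3%) below in HU against control. Their median was -0.03, and Suclg2 was lowest at 0.859 times control (0.806 to 0.915). Of 8 electron carriers and related genes none was above and 2 (25%) were below. Dhodh, which passes electrons from pyrimidine synthesis to ubiquinone, was lowest at 0.833 times control (0.732 to 0.947).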

How the data were processed

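Per the labels' protocols, total RNA was extracted with RNAiso Plus and libraries were made with a NEBNext Ultra RNA kit. The submitters' processing notes name HTSeq 0.6.1 and HISAT2 2.0.1 with the build mm10, besides DESeq, cutadapt, SAMtools 0.1.18 and bcl2fastq 2.17.1.14. The sources used here give no roles, strand setting or annotation release, so overlapping genes on opposite strands cannot be told apart. The authors deposited whole-number counts and FPKM per gene. Each FPKM equals the count divided by exonic size and summed count within rounding for 100% of genes. The deposited exonic gene sizes are of another kind, lengths in bases named as such in the header.

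Counts were scaled to CPM by the summed count of each library, 18644333 in HU plus gold nanocages, 20057329 in HU and 14990564 in control. Because each group is 1 library, edgeR's test could not be fitted, and ratios have exact 95% intervals. These were checked on simulated counts with counting error only, so the check does not cover variation between cultures. No p-values were adjusted because none were computed. TMM factors came from edgeR 4.0.16 and size factors from DESeq2 1.42.0. Coordinates, copies and overlaps came from GENCODE M21 (97.97% of identifiers found). All members could be named; those given in detail were the extremes in level and ratio per complex, the Sdh genes, isoform groups, core or catalytic subunits and genes at least 1.2-fold apart, with up to 4 genes per related list by size of log2 ratio. Values of 1 member are not reported here; it stays in the counts and medians. Members and lists were chosen with earlier results of these data known. Alternatives were other scalings, filters, pseudocounts, lengths, assignments and 99% intervals.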

Additional observations from a re-analysis of the deposited data

How the results depend on the processing

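Over the alternatives run, the median log2 ratio of the members ran from -0.00404 to 0.0352 in HU against control, where subtraction of the length trend turned its sign, from -0.0329 to -0.0240 in HU plus gold nanocages against HU, and from -0.0396 to -0.00581 in HU plus gold nanocages against control. No paired analysis was possible because each group is 1 library, and for the same reason no replicate could be left out. Other scalings left counts within 1.5 times of those reported. With 99% intervals the members above counting error were 7 in HU against control, 0 in HU plus gold nanocages against HU and 2 in HU plus gold nanocages against control, and those below were 2, 7 and 4. With the length trend subtracted, those above were 7, 1 and 3 in the same order, and those below were 10 in HU against control and 15 in HU plus gold nanocages against control. Without members that have near-identical copies (chosen after seeing the data), those above were 11, 1 and 1. The members at least 1.2-fold apart, 4, 1 and 2 as reported, numbered 0, 0 and 0 with a pseudocount of 5 FPKM, 9, 4 and 6 at any mean FPKM above 0, 2, 0 and 1 at a mean of at least 5, and 1, 0 and 1 at a mean of at least 20 (added after seeing the data). In HU against control there were 1 without members with copies and 2 with the reads of copies added. In HU plus gold nanocages against control there were 1 with a pseudocount of 1 FPKM, 1 without members with a -ps row, 0 without members with copies and 1 with the reads of copies added. Calls of Cox7c (HU against control), Atp5l (HU plus gold nanocages against HU) and Atp5k (HU plus gold nanocages against control) were lost with 99% intervals, and that of Atp5l also with the reads of its copies added. The cause of these moves was not tested beyond the construction of each alternative. The median half-width of the interval of a member was 0.11 on the log2 scale in all 3 comparisons.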
